A study of Mus musculus with 6 samples.

Results

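The regions described here were open by ATAC-seq in wild-type (WT) mouse embryonic stem cells and were called in neither of the Alkbh5 mutants. They were chosen by calls alone. Overlapping peaks of all 6 lists (1 bp or more) were joined into regions, and a region on chromosomes 1 to 19 was kept if both WT libraries called it and none of the 4 mutant libraries did. Of 253594 regions on these chromosomes, 6751 (2.66%) met the rule. They make up 4.6% of the 146915 that both WT libraries called. Together they covered 1.55 Mb. Because calls chose them, their heights, folds and significance are given as a description and are not tested.

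The study compared 3 genotypes of E14TG2a cells with 2 libraries each: Alkbh5 KO, Alkbh5 del-cIDR, an allele without a segment called cIDR, and WT. All cells grew in serum with LIF, the MEK inhibitor PD0325901 and the GSK3 inhibitor CHIR99021, and all received spike-in nuclei before transposition. The labels name no separate clones or cultures, so each genotype may be 1 line and the spread between replicates may be technical. Depth is known only through the peaks. The height of a summit, in tags stacked at that base, was solved from the deposited fold and p, and the median peak was 18 to 21 tags high in every list. The gene content of the regions, the state of the Alkbh5 locus and the markers of stem cells were not analysed here, since the gene table at hand is on another genome build than the peaks (GRCm39).

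In ATAC-seq a transposase inserts adapters where DNA is not wrapped tightly in nucleosomes, so promoters, enhancers and insulators appear as peaks of tags. A peak is called when the tags at its summit exceed a local background, and a faint open site can be called in 1 library and missed in another. ALKBH5 removes N6-methyladenosine from RNA. An intrinsically disordered region is a stretch of protein with no fixed fold, and such stretches can steer where a protein acts.

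The WT-only regions were mostly faint and narrow. Their summits reached a median of 10 tags in WT replicate 1 (interquartile range 8 to 14) and 11 tags in WT replicate 2 (9 to 15). Regions called in all 6 libraries reached 33 and 36 tags in the same WT libraries. The median fold over local background was 4.40 and 4.64 in WT-only regions, against 10.4 and 10.9 in regions called in all 6. Of the WT-only regions, 87.2% and 89.1% lay under the median peak height of their WT list. Their WT peaks had a median width of 165 and 157 bp, against 406 and 397 bp in regions called in all 6.

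Both WT libraries gave similar heights at these regions. Replicate 2 exceeded replicate 1 by a median of 0.17 on the log2 scale, the same as at the 96989 regions called in all 6 libraries (0.17). The interquartile range of the log2 ratios ran from -0.13 to 0.43. Spearman's rho between the heights in the WT libraries was 0.66 over the 6751 WT-only regions and 0.95 over those called in all 6, a description over regions that share their libraries and differ in their range of heights. Summits in the WT libraries lay a median of 33 bp apart, against 20 bp in regions called in all 6.

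**Figure D1:**
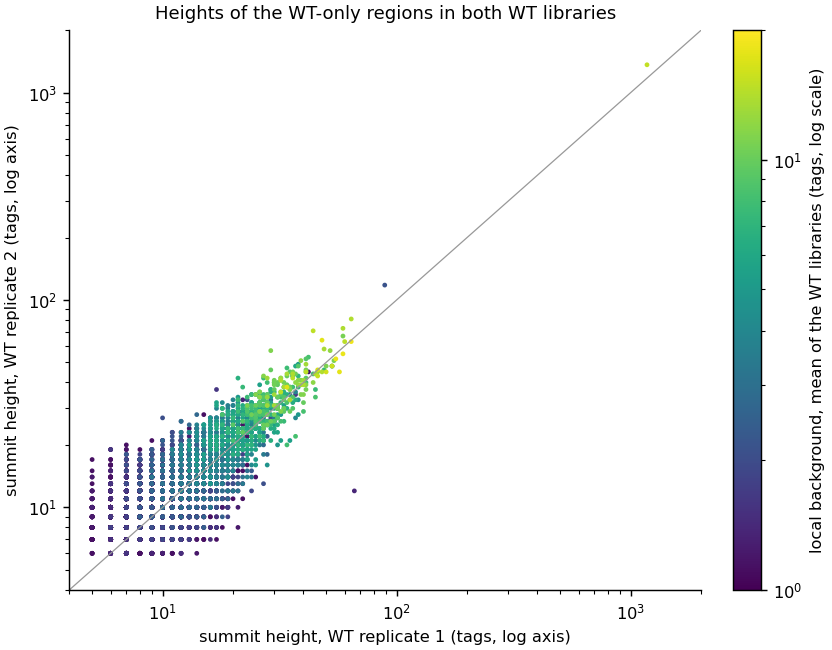
Summit height of each of the 6751 WT-only regions in WT replicate 1 (x axis) and WT replicate 2 (y axis), in tags on log axes, with colour for the local background. Most points lie near 10 tags in dark colours, of the 132 regions with at least 30 tags in both libraries 122 have a background of 5 tags or more, and 1 point stands alone at 1175 and 1363 tags.

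At the faint end, the lowest −log10 q of a WT-only region was 1.32 in WT replicate 1 and 1.35 in WT replicate 2, at the edge of the lists, which end at a q of 0.05. The lowest heights were 5 and 6 tags. Just outside the rule lay 9888 regions called in both WT libraries and in 1 mutant library. There the mutant summit had a median of 11 tags and a minimum of 5 tags, and in 279 of them its −log10 q was under 2. KO replicate 1 made the call in 2589 of these regions, KO replicate 2 in 1365, del-cIDR replicate 1 in 3095 and del-cIDR replicate 2 in 2839.

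How often a WT region was WT-only fell steeply with its height. Where the smaller of the WT heights was 5 or 6 tags, 28.4% of 2284 regions were WT-only and 9.5% were called in all 4 mutant libraries. At 10 to 11 tags, 9.47% of 12659 regions were WT-only. At 20 to 29 tags the share was 1.56%, and at 50 to 99 tags it was 0.0516%, or 10 of 19365 regions. Above that, 1 of 9161 regions was WT-only. Of all WT-only regions, 533 (7.9%) had at least 20 tags in both WT libraries and 132 (1.96%) at least 30.

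**Figure D2:**
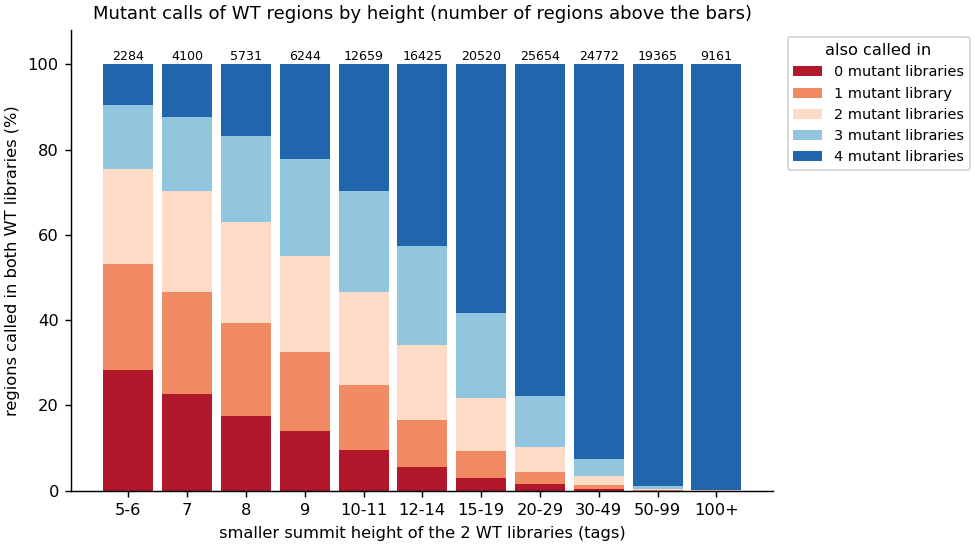
Regions called in both WT libraries, in bands of the smaller WT summit height (x axis, tags); each bar is divided by the share (y axis, %) that was called in 0 to 4 of the mutant libraries, with the number of regions above it. The WT-only share falls over the bands, from 28.4% of the faintest to 1.56% at 20 to 29 tags.

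The lists differed in length, and this bears directly on the count. On chromosomes 1 to 19 the KO lists held 161122 and 147415 peaks, the del-cIDR lists 154058 and 151352, and the WT lists 189594 and 180903. The means were 154268 ± 9692 in KO, 152705 ± 1913 in del-cIDR and 185248 ± 6145 in WT (SD, n = 2). The mutants-minus-WT difference was -31762 peaks, with both WT lists above all 4 mutant lists. The exact permutation test over the libraries, two-sided, gave p = 0.0667, the smallest that 4 against 2 libraries allow. List length counts the same calls that the rule used, and the longer WT lists were known beforehand. This p is therefore not separate support. Replicates may be technical, so it does not measure a spread between lines.

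In the lists as deposited, the WT-only count of 6751 was the highest of the 15 patterns with exactly 2 calling libraries. Regions called only in both KO libraries numbered 3034 (1.2% of the merged regions), and those called only in both del-cIDR libraries 1108 (0.437%). The 12 patterns that cross genotypes held 630 to 2466 regions. With every list shortened to its 147415 most significant peaks, the order changed. WT-only regions then numbered 2734, KO-only regions 4459 and del-cIDR-only regions 2147, while the crossed patterns held 925 to 1434. Shortening removed faint peaks unevenly: regions called in both libraries of a genotype then began at 5 to 6 tags in KO, 7 in del-cIDR and 9 in WT. Of the 2734 WT-only regions at equal length, 2493 were also members in the full lists, 91.2% of the 2734 and 36.9% of the 6751. The WT-only count stayed above all 12 crossed patterns at equal length but not above the KO-only count.

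**Figure D3:**
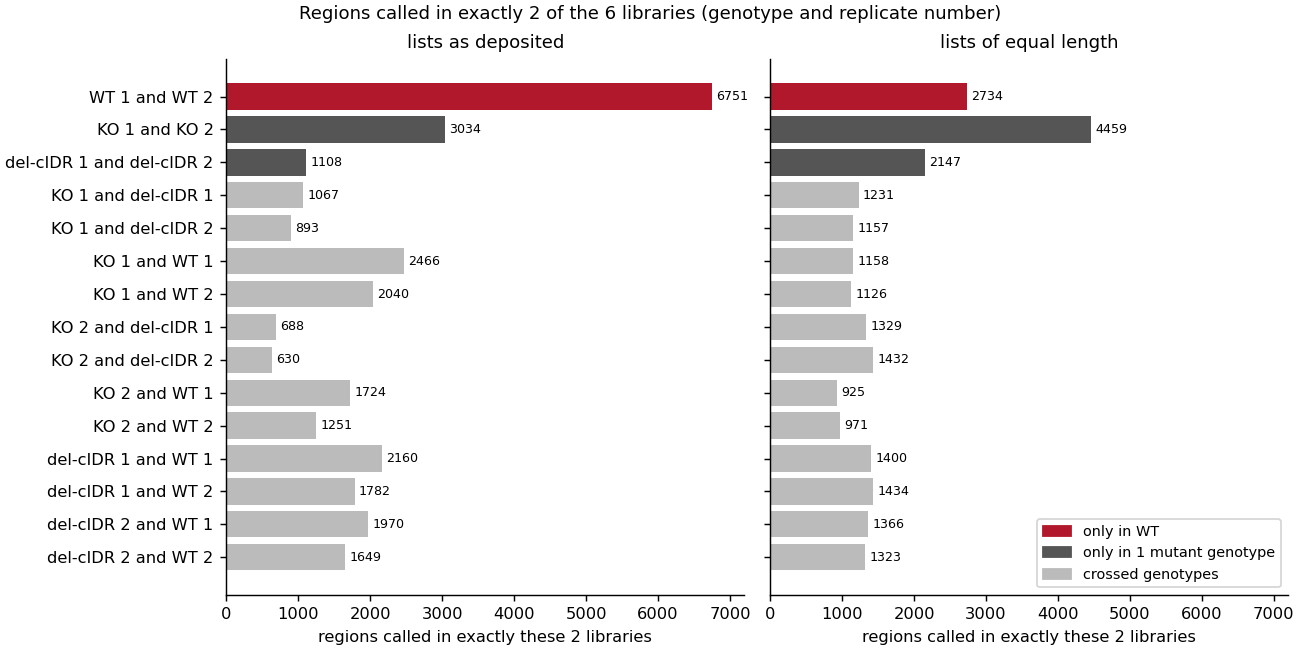
Number of regions (x axis) called in exactly 2 of the 6 libraries, for each of the 15 pairs of libraries, with the deposited lists on the left and lists of equal length on the right. WT-only regions fall to 2734 at equal length, below the 4459 KO-only regions and above the crossed pairs.

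At like heights the comparison read differently. Here regions called in both libraries of a genotype were banded by the smaller of their heights there. At 10 to 11 tags in the equal lists, 9.2% of such WT regions were WT-only. The shares were 8.85% KO-only for KO regions and 5.08% del-cIDR-only for del-cIDR regions. At 20 to 29 tags, 1.25% were WT-only, 0.81% KO-only and 0.371% del-cIDR-only. At 30 to 49 tags, 110 regions (0.445%) were WT-only, 55 (0.28%) KO-only and 17 (0.0782%) del-cIDR-only. Heights are in tags of each library and were not scaled for depth here, and these shares were not tested. Nor were the bands limited by peak width, which differed between the lists as described next.

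Peak width differed between the lists as well. The narrowest peak was 121 and 130 bp in KO, 123 and 125 bp in del-cIDR, and 114 and 113 bp in WT. Peaks under 130 bp made up 4.05% and 0% of the KO lists, 3.13% and 2.3% of the del-cIDR lists, and 7.39% and 7.94% of the WT lists. A WT peak under 130 bp in at least 1 WT library was found in 2363 WT-only regions (35%), against 1.54% of the regions called in all 6 libraries. Both WT peaks were that narrow in 460 WT-only regions. Of the 533 WT-only regions with at least 20 tags in both WT libraries, 256 (48%) had such a peak in at least 1 WT library and 79 (14.8%) in both. In 115 WT-only regions both WT peaks were under 121 bp, the narrowest peak of any mutant list. That held for 12 of the 96989 regions called in all 6 libraries. When only peaks of at least 130 bp were kept in every list, an alternative chosen after seeing the data, 4990 regions were WT-only, 3437 KO-only and 1304 del-cIDR-only. Under both that limit and equal length, 2586 were WT-only, 4448 KO-only and 2169 del-cIDR-only.

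A choice was also made with 1 replicate number, and calls were read in the libraries of the other. The WT sets chosen so are larger than the WT-only set, whose choice used all 6 libraries. They include the 2734 WT-only regions of the equal lists, so their shares are not independent of those regions. Regions were chosen as called in WT replicate 1 and in neither replicate 1 library of the mutants, in lists of equal length, and were then looked up in the replicate 2 libraries. Of 15008 such regions, 18.2% were called in KO replicate 2, 27.3% in del-cIDR replicate 2 and 38.2% in WT replicate 2. Chosen in the replicate 2 libraries, 15823 regions were called at 26.1% in KO replicate 1, 31.3% in del-cIDR replicate 1 and 43.4% in WT replicate 1. The WT library held the most calls in both directions, followed by the del-cIDR library and then the KO library. The 2734 WT-only regions alone made up 18.2% of the first set and 17.3% of the second. That part of the WT shares restates the rule. The order, and the margins given next, are a description and were not tested.

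Regions chosen in the same way for KO were called in the other KO library at 41% and 32.9%, depending on which replicate chose. The del-cIDR libraries called 20.7% and 16.5% of them, and the WT libraries 19.1% and 13.9%. Regions chosen for del-cIDR were called at 32.7% and 31% in the other del-cIDR library, at 21.6% and 20.4% in KO, and at 24.9% and 24.4% in WT. The margin of the own genotype over the higher of the others was 10.8 and 12.1 percentage points where WT chose. It was 20.3 and 16.4 points where KO chose, and 7.72 and 6.64 points where del-cIDR chose. With the lists as deposited, the WT margin was 16.2 and 21.6 points, while regions chosen for del-cIDR were called at 23.7% and 25.8% in the other del-cIDR library, less often than in WT (30.3% and 34.8%). With 1 library read per genotype, these shares have no replicate error.

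**Figure D4:**
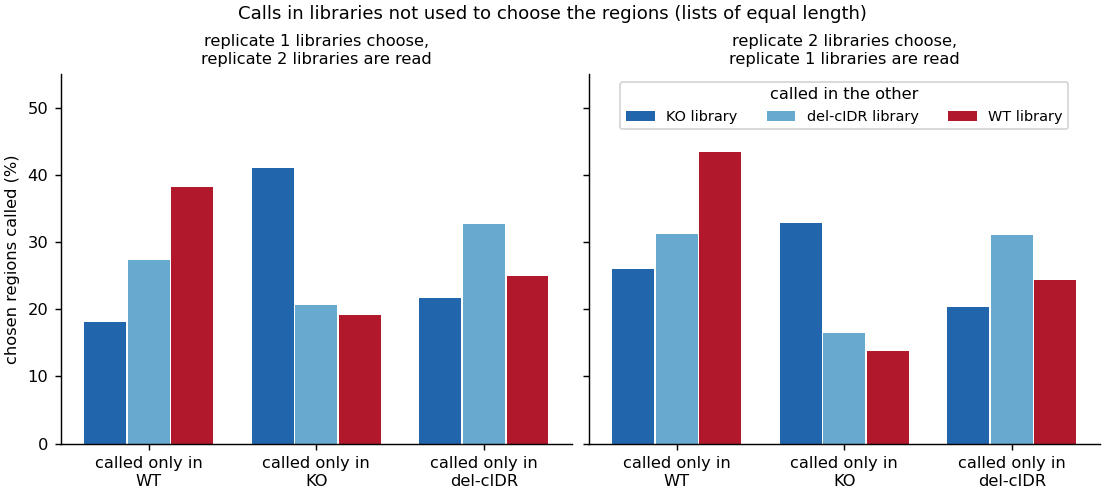
Share (y axis, %) of regions chosen by the calls of one replicate number that were called in each library of the other number, for regions called only in WT, KO or del-cIDR (x axis), in lists of equal length. The library of the choosing genotype is highest in all 6 groups, at 38.2% and 43.4% for WT.

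Faint and tall WT-only regions lay in different surroundings. Local background is the tag level that the caller expected around a peak, and its lowest value is set by the library as a whole. Of the 6218 WT-only regions under 20 tags, 57.6% had a background within 1% of that lowest value in both WT libraries, and their median distance to a region called in all 6 was 6767.5 bp. Of the 533 regions of 20 tags or more, 3.19% were at the lowest background. Their median background was 6.1 tags, and 353 of them (66.2%) had at least 5 tags of background. Regions called in all 6 libraries with at least 20 tags in WT had a median background of 2.86 tags, and 23.1% had at least 5. Background enters each call, so this contrast is not separate from the rule.

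Tall WT-only regions also lay close to strong shared ones. Of the 533, 498 (93.4%) had a region called in all 6 libraries within 5 kb, at a median distance of 1765 bp. The nearest such region had a median WT height of 87 tags. For regions called in all 6 with at least 20 tags, 48.6% had another shared region within 5 kb. The nearest other shared region had a median of 38 tags and lay 5166 bp away. These sets were not matched for height. At equal height, tall WT-only regions stood less far above their surroundings. A call weighs the summit against its background, so at a given height the rule itself favours high background and low fold. The values are a description and were not tested. At 30 to 49 tags the median of the smaller WT fold was 3.33 in 121 WT-only regions and 11.7 in 22920 regions called in all 6. Their WT peaks were 138.5 bp wide at the median, against 408 bp. At 10 to 11 tags, where background was low in both, the smaller fold was 5.05 and 5.27 and the width 172 and 286 bp.

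Over all WT-only regions, which are mostly faint, the median distance to a region with any mutant call was 2601 bp, against 2718 bp from a region called in all 6 libraries to its nearest other region with a mutant call. Within 500 bp lay 872 WT-only regions (12.9%), against 13.7% of those called in all 6. Within 5 kb the shares were 70.7% and 70.6%. Only 43 WT-only regions were more than 50000 bp from a mutant call, with 114459 bp the farthest. These pooled values mix heights. At like height WT-only regions lay closer to a mutant call than regions called in all 6 did, in every band up to 50 to 99 tags. At 10 to 11 tags the median was 2600 bp for WT-only regions, against 3316 bp for those called in all 6. At 20 to 29 tags it was 1430 bp for WT-only regions, against 2539 bp. Only the single WT-only region of over 100 tags lay farther away, at 6935 bp against 3775 bp.

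The tallest WT-only region was chr16:91331471-91331585 (GRCm39). It held 1175 tags in WT replicate 1 and 1363 in WT replicate 2, folds of 77 and 79.1 over background, and no mutant call. Its WT peaks were 114 and 115 bp wide, the least or nearly the least width that the WT lists hold and less than that of any peak in the mutant lists. The next, chr6:128326711-128326893, held 89 and 118 tags with folds of 30.9 and 34.9. These regions stood 6935 and 5368 bp from the nearest mutant call, farther than most.

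Below these the smaller WT height was at most 64 tags, and the smaller fold was under 10 in 17 of the 20 tallest regions. On chromosome 7, chr7:45008627-45008774 held 64 and 81 tags at folds of 4.41 and 5.4. Nearby, chr7:45205357-45205488 held 60 and 63 tags and chr7:45086611-45086747 held 53 and 48. The 1 Mb window from 45 to 46 Mb on that chromosome had 148 regions called in both WT libraries, of which 11 were WT-only and 7 of these had at least 20 tags, the most of any window. The region chr7:19446440-19446578 held 64 and 63 tags on a background of 17.7 and 19.3 tags.

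On chromosome 11, chr11:74717080-74717293 held 59 and 73 tags and chr11:96870938-96871182 held 59 and 55. On chromosome 9, chr9:66952334-66952475 held 59 and 67 tags with folds of 5.34 and 5.52. Chromosome 13 had chr13:23612879-23613058 with 55 and 52 tags and chr13:21968138-21968336 with 48 and 64, the second 471 bp from a mutant call. Among the 20 tallest, whose smaller heights ran down to 45 tags, 18 had at least 5 tags of background and 18 lay within 5 kb of a mutant call. Their merged widths were 115 to 276 bp. In 15 of them the WT summits were at most 10 bp apart.

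A high fold in both WT libraries was rare. In 25 WT-only regions, a group chosen after their values were seen, both folds were at least 10. They lay on 14 chromosomes, 17 had the lowest background and 12 were more than 5 kb from a mutant call. Of these, chr14:26873872-26874074 held 53 and 48 tags and lay 154 bp from a mutant call. By contrast, chr13:66711771-66711886 held 42 and 45 tags at folds of 20.6 and 21.1, and lay 9161 bp away. The region chr15:84788512-84788875, 364 bp wide, held 37 and 35 tags at folds of 14.3 and 13.7. On chromosome 2, chr2:47646395-47646521 held 24 and 26 tags and was 29218 bp from a mutant call. Of the 25, 18 were under 200 bp wide.

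Broad WT-only regions were few. As merged regions, 320 (4.74%) were at least 400 bp wide. The tallest of these was chr7:45214175-45214580 with 32 and 41 tags, in the same stretch of chromosome 7 as above. It was followed by chr5:149305550-149306122, 573 bp wide, with 26 and 28 tags at folds of 6.64 and 6.15. On chromosome 6, chr6:47155543-47156077 held 26 and 27 tags. The region chr11:20612752-20613243 held 24 tags in each WT library and ended 13 bp from a region with a mutant call. The one with the highest fold among the 10 tallest broad regions was chr18:10269359-10269790, with 22 and 33 tags at folds of 9.75 and 14.6. On chromosome 15, chr15:65761155-65761681 held 24 and 22 tags and was 4330 bp from a mutant call.

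WT-only regions were scattered over the chromosomes. Following the WT regions along each chromosome, 6169 WT-only regions stood alone between regions with a mutant call, 276 runs held 2 in a row and 10 runs held 3. No run was longer. Of the 10 runs of 3, the one with the tallest member lay at chr3:155452368-155466266, with smaller WT heights of 8 to 19 tags. The next were chr5:128081371-128115006, with 9 to 13 tags, and chr13:72720923-72739824, with 7 to 13 tags. The last lies in the 1 Mb window from 72 to 73 Mb of chromosome 13, where 8 of 39 WT regions (20.5%) were WT-only.

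Among 1973 windows of 1 Mb with at least 20 WT regions, the median WT-only share was 4.35% (interquartile range 2.86% to 6.31%). No WT-only region was found in 155 windows. The highest share was 27.3% (6 of 22) at 124 to 125 Mb on chromosome 14, followed by 20.7% (6 of 29) at 76 to 77 Mb on chromosome 9 and the chromosome 13 window. Tied at 19% (4 of 21 each) were 72 to 73 Mb on chromosome 10, 63 to 64 Mb on chromosome 5 and 56 to 57 Mb on chromosome 7. These windows held only 21 to 39 WT regions each, so a few regions set such a share. None of their WT-only regions reached 20 tags. Tall WT-only regions lay instead where WT regions were dense. WT regions were ordered by the density of their window and divided into 5 groups. In the densest group (121 to 186 per window), 197 of 19079 regions of 20 tags or more were WT-only (1.03%), against 44 of 12150 (0.362%) in the sparsest group. For regions under 20 tags the shares were 9.82% and 8.33%. Over all heights together the WT-only share ran the other way, at 4.12% in the densest group and 5.03% in the sparsest.

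By chromosome, the WT-only share of WT regions was lowest on 6 and 8. It was 3.54% on chromosome 6 (302 regions) and 3.33% on chromosome 8 (276), and 3.84% to 5.24% on the other 17, with chromosome 14 highest and chromosome 11 lowest. With lists of equal length, chromosomes 6 and 8 stood at 1.65% and 1.58% and the others at 1.69% to 2.72%. On chromosomes 6 and 8 together, 7.41% of WT regions were called in neither KO library, against 13.1% elsewhere. In neither del-cIDR library were 10.7%, against 9.07% elsewhere. The lower share there thus went with more KO calls and not with more del-cIDR calls. Each genotype may be 1 line, so a line's own chromosome content and its genotype cannot be told apart.

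**Figure D5:**
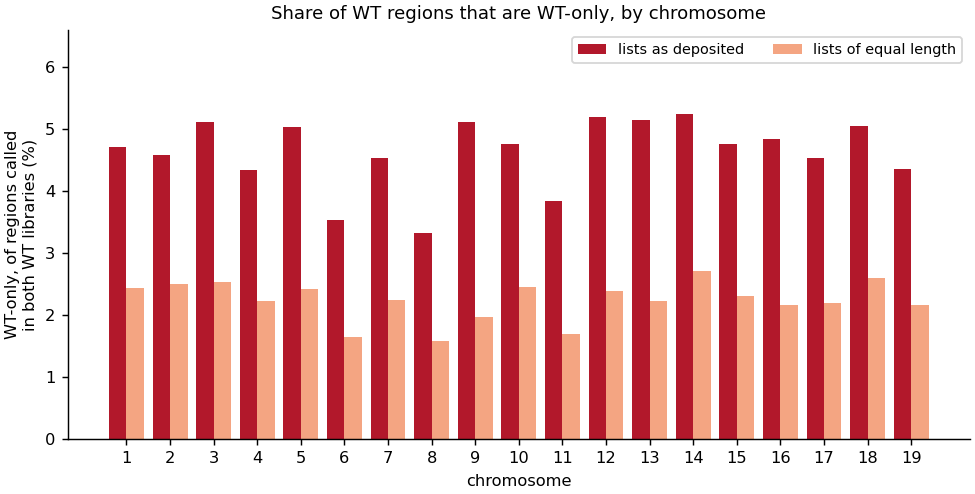
Share (y axis, %) of regions called in both WT libraries that were WT-only, for each autosome (x axis), with the deposited lists and with lists of equal length. Chromosomes 6 and 8 are lowest in both, at 3.54% and 3.33% in the deposited lists.

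Heights of shared open regions beside the WT-only ones were also compared between mutants and WT. The rule did not use these heights directly. Tags of a neighbour can still enter the local background of a site, and background enters each call. The comparison is therefore not separate from the rule. Within 5 kb of a WT-only region lay 3725 regions called in all 6 libraries. Their median log2 height, relative to the median of all such regions in the same library, was 0.08 and 0.05 in KO, 0.05 in both del-cIDR libraries, and 0.00 and 0.04 in WT. The mutants' mean was 0.06 and that of WT 0.02, a difference of 0.04 log2. All 4 mutant libraries were above both WT libraries, with an exact permutation p of 0.0667, the smallest possible here. Heights are whole tags, with WT medians of 33 and 36 tags over regions called in all 6 libraries. A shift of 1 tag is about as large as these differences, so the order of the libraries, and with it this p, can turn on 1 tag. Within 1 kb the difference was 0.01 (exact p = 0.867), and without chromosomes 6, 8 and 11 it was 0.01 (exact p = 0.8). Within 5 kb the median height of shared neighbours was thus not lower in the mutants. No p under 0.0667 is possible with 4 against 2 libraries, so the test cannot decide whether these heights differ.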

How the data were processed

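ATAC-seq peak lists of 6 libraries, 1 per library, were used as deposited. The tools named in the submitters' processing notes are MACS2, BWA, fastp, featureCounts, Picard and SAMtools, with build GRCm39. Their versions and settings, and whether reads were shifted to the cut site, were not given in the sources used. The deposited fold is a ratio of summit pileup to local background within a library, and significance was deposited as −log10 of p and of q. In at least 99.9% of peaks of each list the deposited score was 10 times −log10 q without its decimals, and it was not used.

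Heights and local backgrounds were solved from fold and p with the Poisson form of MACS2, and a height came out whole within 0.1 tags in 100% of 1016776 peaks. The solver and the merging were tested on simulated data. Spike-in peaks (sequence dm) were dropped before merging. For equal lists, the most significant peaks by p were kept to the shortest autosomal list. Tests were exact permutations over libraries, two-sided. The regions and all measures were chosen with earlier results of these data known. Named regions were the 20 tallest by the smaller WT height, the 10 tallest of at least 400 bp, the 3 runs of 3 with the tallest members, and the 1 Mb windows with the highest WT-only share, ties included. The 25 regions with both folds of at least 10 and the window with most tall WT-only regions were added after their values were seen. Planned work on gene starts, gene lists and motifs was not run, because no annotation or genome of GRCm39 was used here. Python 3.11.15, numpy 2.4.6, pandas 2.3.3, SciPy 1.17.1 and numba 0.67.0 were used.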

Additional observations from a re-analysis of the deposited data

How the results depend on the processing

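The count of WT-only regions moved by more than 1.5 times with several settings. It was 6751 as deposited, 2734 with lists of equal length, 2261 with −log10 q of at least 5 asked of the WT lists only, and 2586 with the width limit and equal lists together, the last chosen after seeing the data. It was between 4807 and 6682 under the other settings, namely that q limit in every list, merging at 50 bp, a mutant peak within 500 bp counted as a call, the width limit alone, and without chromosomes 6, 8 and 11. Of the 4807 regions under the q limit in every list, 2261 were members as deposited. Without 1 library fewer calls are required, and the count was 8166 to 25978, with 19804 without WT replicate 1 and 25978 without WT replicate 2. The median height, averaged over the WT libraries, was 10.5 tags, 14 with the q limit in every list, 13.5 with equal lists, and 8 to 11 without 1 library. The share of WT-only regions on chromosomes 6 and 8 was 8.56%, against 11.5% of all regions called in both WT libraries as deposited. It was 9.36% with the q limit, and 7.89% to 10.6% without 1 library, the highest without KO replicate 1. The share of regions chosen in replicate 1 libraries that were called in WT alone among the replicate 2 libraries was 19.3%, 21.2% with the numbers exchanged, 18.2% with equal lists and 28.3% with the q limit. Regions that meet both conditions are the WT-only regions themselves, 6751 as deposited, so this share restates the rule and is not a separate reading. The height difference at shared neighbours was -0.000702 log2 within 20 kb (exact p = 1), the opposite sign, and 0.0171 to 0.0566 without 1 library; the cause was not tested. List length differed by -36107 to -27416 peaks without 1 library and by -22493 with the q limit. At shared regions, deviations from the genotype means did not go together between libraries of equal replicate number, with correlations of -0.01 to 0.01. A shift common to all regions would not show in this correlation. With the replicate number as a block, the neighbour difference was 0.0369 and the list difference -31762 peaks, each with an exact p of 0.111, the smallest possible. Sites open below the calling limit cannot be seen in these lists.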
